A study of Mus musculus with 2 samples.

Results

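The early B-cell factor genes *Ebf1*, *Ebf2* and *Ebf3* were followed through the cell classes of the fetal mouse testis. They were chosen by symbol, as 3 of the 32285 genes of the deposited feature table. *Ebf4*, the remaining member of the family, is given beside them for reference. Whole testes were taken at E14.5, a stage of embryonic development, from embryos carrying *Nr5a1-cre* and *Rosa-tdTomato*, and were frozen. The 10x multiome kit then gave, for each nucleus, its RNA and, by transposase cutting (ATAC), its open chromatin. All nuclei share this genotype, so no comparison between genotypes exists. *Nr5a1-cre* drives recombination in steroidogenic and supporting cells of the gonad, the nuclei were not sorted for the reporter, and neither the labels nor the study's methods give the number of embryos pooled. Each assay has 1 library, so no value has a replicate and no test between animals was possible.

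EBF proteins are transcription factors that bind DNA as dimers through a zinc-containing domain and a helix-loop-helix motif, at a palindrome close to TCCC and GGGA around a short gap. EBF1 is best known for committing lymphoid progenitors to the B-cell lineage. EBF2 is known for its role in brown fat precursors and in neurons, EBF3 for roles in neurons and muscle, and several members are expressed in mesenchyme and in the mural cells that wrap small vessels.

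After filtering, 7197 nuclei remained of 9833 barcodes, with 77166216 UMIs (unique RNA molecules) and a median of 7949 UMIs and 1721 ATAC fragments at peaks per nucleus. Nuclei were clustered on RNA and ATAC together, without the *Ebf* genes and their peaks, and clusters were named from marker genes. The classes that matter here were progenitor-like (2131 nuclei), contractile (1186), mesonephric mesenchyme-like (399), pericyte-like (67), Leydig-like (752), endothelial-like (96), immune-like (69) and germ-like (991). Levels are UMIs per 1000000 UMIs of a class (CPM), with exact Poisson 95% intervals in brackets. Ratios of levels have exact conditional binomial intervals, and shares have Clopper-Pearson intervals. All of these cover counting error only and not the spread between nuclei or animals. Doublets were removed by rank (470 nuclei, 6.13%), and the automatic threshold of the same caller marked 1428 (18.6%), so values without the nuclei over that threshold are also given for the classes the results turn on.

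Marker levels are given for the focal classes. The names came from these same markers, so a high sum in the class it named is no check of the name. Summed pericyte markers (*Lgi1*, *Dgkb*, *Ndst3*, *Mcam*, *Steap4*, *Cspg4*) stood at 2184 CPM in pericyte-like, 66.0 CPM in progenitor-like and 71.7 CPM in mesonephric mesenchyme-like nuclei. Endothelial-like nuclei held 281 CPM of them. The summed mesonephric markers stood at 1839 CPM in mesonephric mesenchyme-like and 66.4 CPM in progenitor-like nuclei. Progenitor markers separated less well, at 2061 CPM in progenitor-like and 1808 CPM in contractile nuclei, and 615 CPM in Leydig-like nuclei. Expression of the family was not restricted to mesenchyme: endothelial-like nuclei ranked second for *Ebf1* and first for *Ebf3*.

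*Ebf1* (ENSMUSG00000057098, mm10 chr11:44617317-45008091, plus strand) had a level that differed widely between classes. The kept nuclei held 18796 UMIs of *Ebf1*, 518 of *Ebf2* and 724 of *Ebf3*, totals that are not compared between genes because nuclear reads rise with gene length. Its level was 2891 CPM [2765, 3020] in pericyte-like nuclei, 920 CPM [880, 961] in endothelial-like nuclei and 484 CPM [474, 495] in progenitor-like nuclei. In pericyte-like nuclei *Ebf1* was 5.97-fold [5.68, 6.27] above progenitor-like nuclei, and in these it was 3.15-fold [2.97, 3.34] above Leydig-like nuclei.

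Immune-like nuclei followed at 432 CPM [384, 483], mesonephric mesenchyme-like nuclei at 280 CPM [262, 300] and contractile nuclei at 263 CPM [252, 275]. Leydig-like nuclei held 154 CPM [146, 162] of *Ebf1*. The remaining classes lay lower, from 90.8 CPM in erythroid-like nuclei to 46.4 CPM [42.3, 50.8] in Sertoli-like nuclei, with germ-like nuclei at 68.3 CPM [64.8, 72.0]. The order was therefore pericyte, endothelial, progenitor, immune, mesonephric, contractile and Leydig. Progenitor and immune were not separated beyond counting error (ratio 1.12 [1.0, 1.26]), nor were mesonephric and contractile (ratio 1.06 [0.982, 1.15]). Below erythroid, no neighbouring classes were separated.

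**Figure D1:**
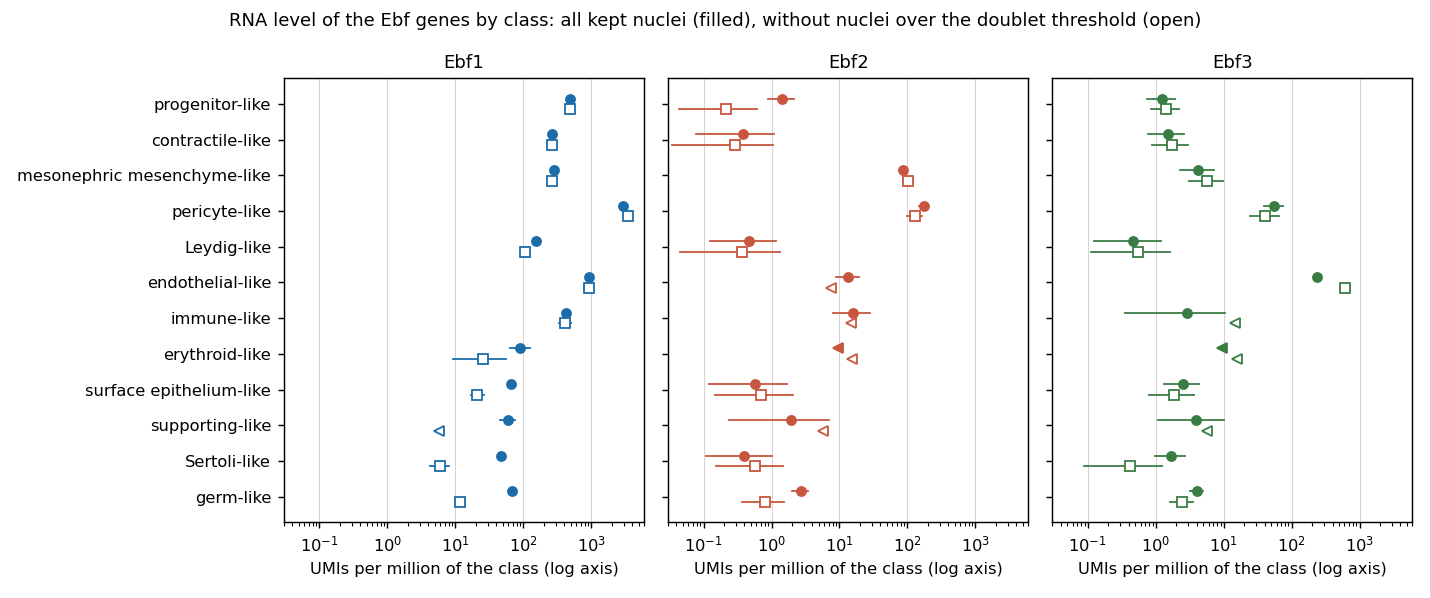
Levels of *Ebf1*, *Ebf2* and *Ebf3* in UMIs per 1000000 of the class (log axis) by class, for all kept nuclei (filled) and without nuclei over the automatic doublet threshold (open), with exact Poisson 95% intervals. Triangles mark the exact Poisson upper bound where no UMI was found. With all nuclei, *Ebf1* runs from 2891 CPM in pericyte-like to 46.4 CPM in Sertoli-like nuclei, *Ebf2* is high in pericyte-like (176 CPM) and mesonephric mesenchyme-like nuclei (85.0 CPM), and *Ebf3* in endothelial-like (239 CPM) and pericyte-like nuclei (55.2 CPM).

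The pericyte level of *Ebf1* was carried by nearly every nucleus. A UMI was found in 65 of 67 pericyte-like nuclei, and the nucleus with most UMIs held 5.08% of them. In endothelial-like nuclei 84 of 96 had a UMI, and 1 nucleus held 446 of the 1984 UMIs (22.5%).

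Because classes differed in depth, each nucleus was also thinned to 2000 UMIs. *Ebf1* was then found in 95.5% [87.5, 99.1] of pericyte-like, 66.3% [55.9, 75.7] of endothelial-like and 43.2% [41.1, 45.3] of progenitor-like nuclei. The share was 12.8% [10.5, 15.4] in Leydig-like nuclei and 5.06% [3.78, 6.61] in germ-like nuclei, a class outside the mesenchyme that is given for comparison. Most germ-like *Ebf1* lay in nuclei over the doublet threshold, so this share is not a measure of free RNA alone. Without thinning, the shares were 97.0%, 87.5%, 64.1%, 26.5% and 19.4% in the same order, at median depths of 7827, 9303.5, 6605, 9858.5 and 15614 UMIs. Thinning left out 14 progenitor-like, 41 contractile and 2 germ-like nuclei that were too shallow.

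**Figure D2:**
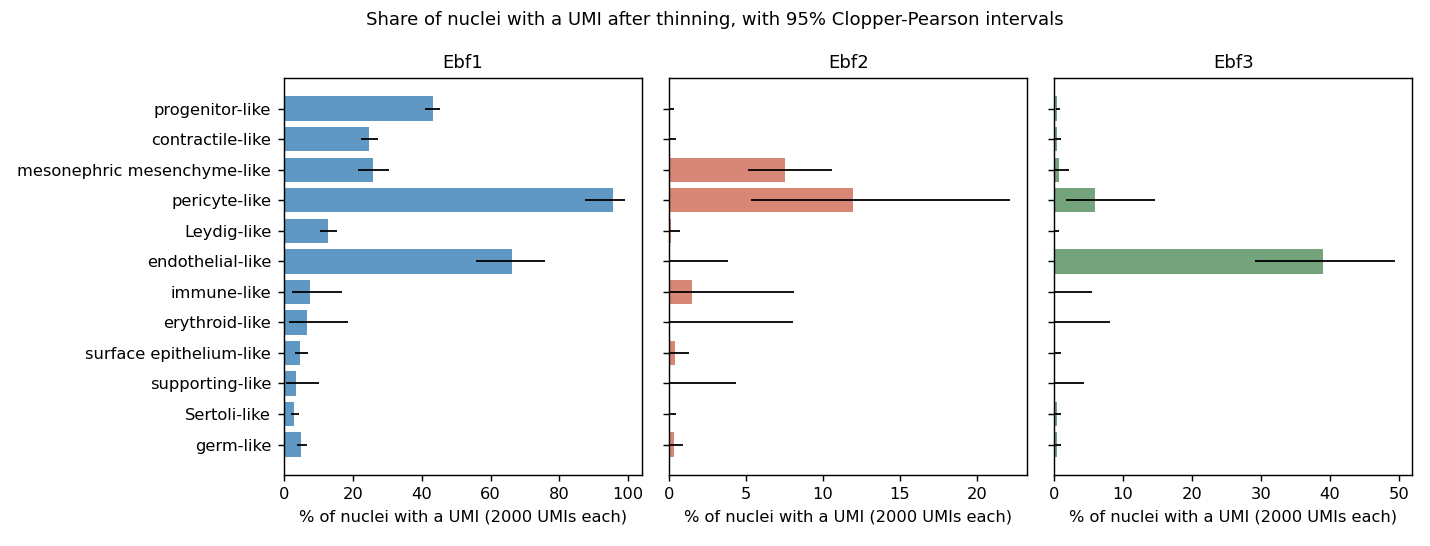
Percent of nuclei with at least 1 UMI of *Ebf1*, *Ebf2* or *Ebf3* (bars, each panel on its own scale from 0) after thinning every nucleus to 2000 UMIs, by class, with Clopper-Pearson 95% intervals (lines). For *Ebf1* the share falls from 95.5% in pericyte-like to 43.2% in progenitor-like, 12.8% in Leydig-like and 5.06% in germ-like nuclei.

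Leydig-like *Ebf1* moved with the nuclei over the automatic doublet threshold. These held 57.2% of the *Ebf1* UMIs of the class, and without them its level was 105 CPM and the progenitor-like over Leydig-like ratio 4.71. Of the 199 Leydig-like nuclei with an *Ebf1* UMI, 52.3% were over that threshold, against 10.7% of the 553 without one. The nuclei with *Ebf1* had more of the summed progenitor markers (937 against 447 CPM, ratio 2.10 [1.98, 2.21]) and less of the summed Leydig markers (3027 against 5095 CPM, ratio 0.594 [0.580, 0.608]). Pericyte (ratio 4.42 [3.21, 6.16]), mesonephric (2.92 [2.48, 3.44]), endothelial (2.23 [1.72, 2.89]) and contractile markers (2.21 [1.88, 2.61]) were also higher in them. Neural markers were lower (0.512 [0.275, 0.900]). Immune (1.26 [0.850, 1.86]) and B-cell markers (1.02 [0.399, 2.41]) had intervals that include 1. The median depth of the nuclei with *Ebf1* was 12050 UMIs, against 9509. The part of mixed nuclei in this level was not tested. Germ-like and Sertoli-like *Ebf1* came mostly from the same kind of nuclei (90.8% and 91.1% of UMIs), with 11.8 and 5.96 CPM left without them. In the same way *Ebf1* was 25.2 CPM in erythroid-like, 21.1 CPM in surface epithelium-like and 0 CPM in supporting-like nuclei. The mesenchymal levels moved little in comparison, with 3416 CPM in pericyte-like, 492 CPM in progenitor-like and 262 CPM in mesonephric mesenchyme-like nuclei, and the endothelial-like level was 934 CPM although 77.0% of its UMIs had come from such nuclei.

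In finer clusters *Ebf1* differed within several classes. Among clusters named progenitor-like here, a cluster of 166 led by *Ccdc85a*, *Dpp10* and *Stc2* held 709 CPM [661, 759] and the cluster of 1348 held 551 CPM. A cluster of 822 with *Ntng1* and *Kirrel3* among its leading genes held 390 CPM. It was also named progenitor-like here, but *Kirrel3* and *9630002D21Rik*, which lead it, were leading genes of the contractile class of 1186. Its level is therefore not read as a part of the progenitor-like class. The cycling cluster of 604 nuclei, led by *Neil3* and *Cdkn2c*, held 349 CPM, and the cluster of 1348 was 1.58-fold [1.5, 1.66] above it. Contractile nuclei led by the smooth muscle genes *Lmod1*, *Myocd* and *Myh11* held 74.5 CPM, a level 7.40-fold [6.50, 8.45] below the cluster of 1348. The contractile name covered only 385 and 96 nuclei at this resolution (74.5 and 64.8 CPM), against 1186 nuclei before, so the 263 CPM of the contractile class also covers nuclei that take another name here. Leydig-like nuclei also split, with 85.3 CPM in a cluster of 415 led by *Kcnip4* and *Srd5a2*, which encodes a steroid reductase, and 264 CPM in a cluster of 336 led by *Sphkap* and *Vsnl1*. This ratio of 0.323 [0.288, 0.362] was not particular to them. Ratios were 0.230 [0.185, 0.285] between Sertoli-like clusters, 0.243 [0.207, 0.284] in the widest germ-like pair and 0.350 [0.276, 0.445] in surface epithelium-like clusters. Contractile (1.15 [0.838, 1.61]) and endothelial-like clusters (0.982 [0.897, 1.07]) were not separated.

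**Figure D3:**
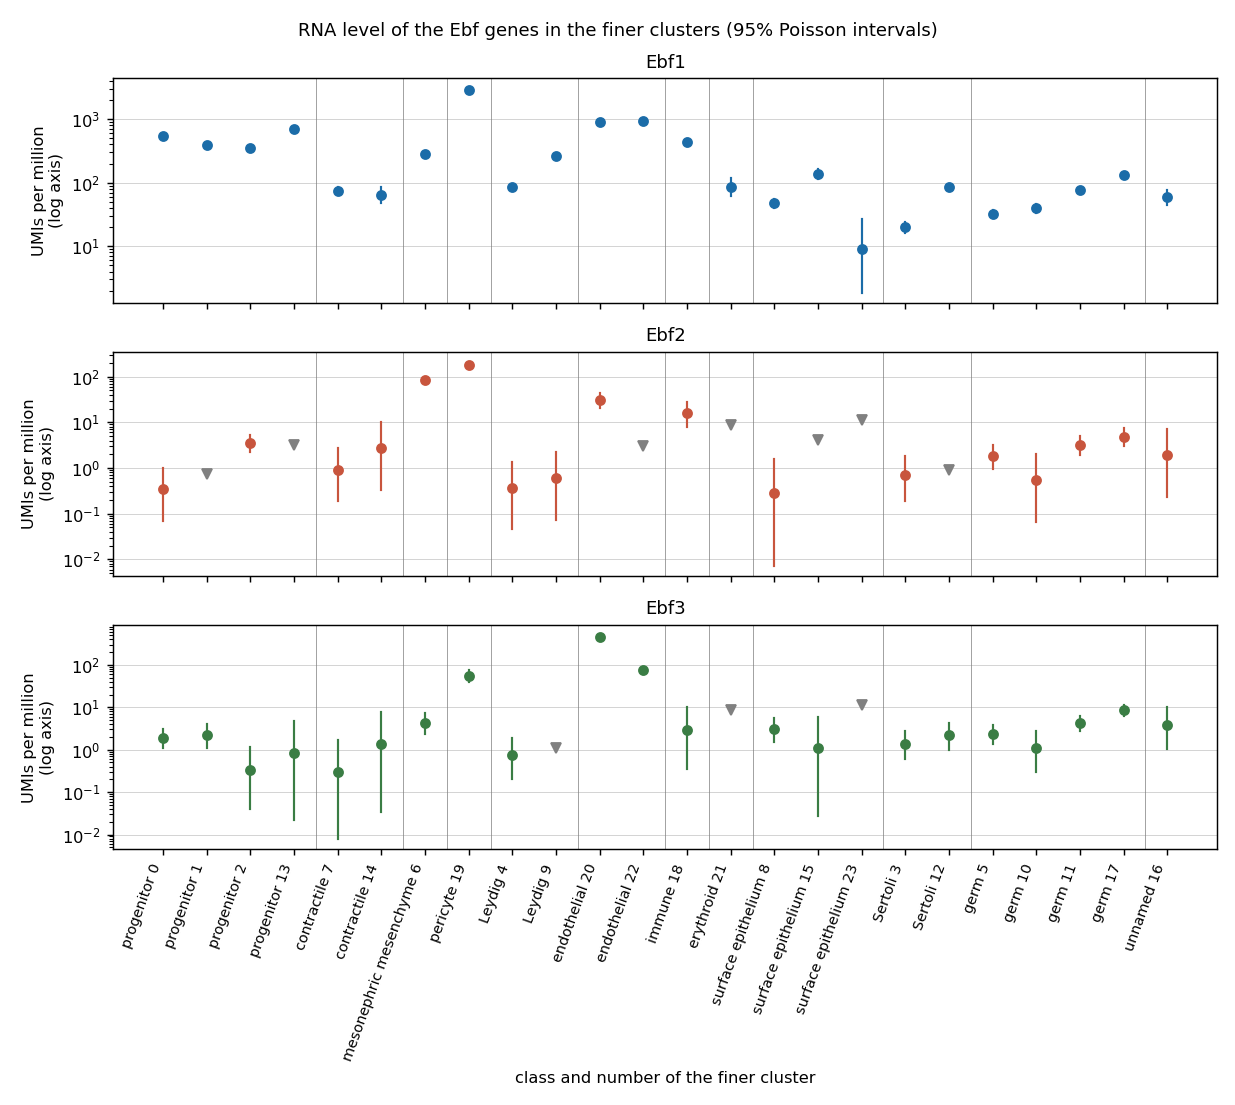
Level of *Ebf1*, *Ebf2* and *Ebf3* in UMIs per 1000000 of the cluster (log axis) in clusters cut at a finer resolution, with exact Poisson 95% intervals. Clusters are grouped by the class name they took at this resolution. Grey triangles mark the exact Poisson upper bound where no UMI was found. Within endothelial-like nuclei *Ebf1* is alike in both clusters (914 and 931 CPM). *Ebf3* is 454 CPM in one, with a UMI in 56 of 63 nuclei, and 74.4 CPM in the other, with a UMI in 17 of 32. Nuclei over the doublet threshold are included.

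Immune-like *Ebf1* came from few nuclei. Of the 300 UMIs, 228 (76%) lay in the 4 nuclei that also held *Pax5*, the B-cell identity factor, with 93, 54, 50 and 31 UMIs. These 4 nuclei reached 7456 CPM [6519, 8489] of *Ebf1*, against 108 CPM [84.8, 136] in the other 65. They held UMIs of 6, 6, 6 and 4 of the 10 B-lineage genes checked, 54 UMIs together, and 5 UMIs of the immune markers. Their summed progenitor markers stood at 1177 CPM (36 UMIs), against 676 CPM in the other 65. Over all 9 immune-like nuclei with *Ebf1*, against the 60 without it, progenitor markers had a ratio of 4.79 [3.79, 6.10], mesonephric markers 7.19 [3.55, 16.5] and contractile markers 4.64 [2.67, 8.56], and immune markers 0.0732 [0.0586, 0.0906]. Of the 397 progenitor-marker UMIs of these 9, 253 lay in 1 nucleus of 193940 UMIs that held no *Pax5*, so the pooled ratios lean on that nucleus. The part of mixed nuclei in these values was not tested. Of the 4, 2 were over the doublet threshold. The other 5 nuclei with *Ebf1* had 8 to 30 UMIs of it, and all were over the threshold. Because *Ebf1* and *Pax5* were looked at together only after the levels were seen, this is a description of 4 nuclei.

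*Ebf2* (ENSMUSG00000022053, mm10 chr14:67233292-67430918, plus strand) was found mainly in pericyte-like and mesonephric mesenchyme-like nuclei. Its level was 176 CPM [146, 210] in pericyte-like nuclei (121 UMIs) and 85.0 CPM [75.0, 95.9] in mesonephric mesenchyme-like nuclei (262 UMIs). Progenitor-like nuclei held 1.41 CPM [0.895, 2.12], below germ-like nuclei at 2.68 CPM [2.02, 3.48]. Pericyte-like nuclei were 2.07-fold [1.65, 2.58] above mesonephric mesenchyme-like nuclei, and these were 60.2-fold [39.3, 96.7] above progenitor-like nuclei. The latter ratio was 489 without nuclei over the doublet threshold, which left 3 progenitor-like UMIs, so its size is poorly fixed.

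The rest of the order for *Ebf2* rested on few nuclei. Immune-like (15.8 CPM) and endothelial-like nuclei (13.4 CPM) were not separated from each other, and all 29 endothelial-like UMIs and 10 of the 11 immune-like UMIs lay in 1 nucleus each. Of the 23 progenitor-like UMIs, 20 lay in 1 nucleus. No UMI was found in erythroid-like nuclei, for which a limit of 3 counts is 7.78 CPM and the exact Poisson upper bound 9.57 CPM. Leydig-like, Sertoli-like and contractile nuclei held 4, 4 and 3 UMIs, and these lowest classes were not separated.

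*Ebf2* was also uneven within the classes where it was high. It was found in 12 of 67 pericyte-like nuclei, 1 of which held 51 of the 121 UMIs (42.1%), and in 48 of 399 mesonephric mesenchyme-like nuclei, where the highest held 9.54%. After thinning, the shares were 11.9% [5.30, 22.2] and 7.54% [5.14, 10.6], against 0.303% in germ-like and 0.0945% in progenitor-like nuclei. Unthinned shares were 17.9%, 12% and 2.12% in pericyte-like, mesonephric and germ-like nuclei, at median depths of 7827, 6540 and 15614 UMIs. Nuclei over the doublet threshold held 51.2% of the pericyte-like UMIs and 11.5% of the mesonephric ones. Without them the levels were 128 CPM [97.4, 165] and 103 CPM [90.4, 117], and these intervals overlapped.

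Mesonephric mesenchyme-like nuclei with *Ebf2* had the same median depth as those without (6552 and 6540 UMIs), and 14.6% and 18.5% were over the doublet threshold. The 48 nuclei with *Ebf2* held more of the mesonephric markers (2442 against 1753 CPM, ratio 1.39 [1.30, 1.49]). Summed pericyte markers were 172 CPM in them and 57.4 CPM in the 351 others (ratio 3.0 [2.21, 4.02]). In the pericyte-like class, the 12 nuclei with *Ebf2* held 3352 CPM of pericyte markers against 1906 CPM in the 55 others (ratio 1.76 [1.57, 1.97]), and 128 against 792 CPM of Leydig markers. Markers of other classes differed in both directions. In pericyte-like nuclei with *Ebf2*, mesonephric markers stood at 181 against 48.6 CPM (ratio 3.73 [2.06, 6.71]), contractile markers at 264 against 437 CPM (ratio 0.604 [0.411, 0.864]), and 25% against 10.9% of nuclei were over the doublet threshold. In mesonephric mesenchyme-like nuclei with *Ebf2*, neural markers had a ratio of 5.76 [2.11, 15.3], on 9 and 11 UMIs, and contractile, progenitor and Leydig markers had ratios of 0.850, 0.898 and 0.820 with intervals that include 1. The part of mixed nuclei in these differences was not tested.

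*Ebf3* (ENSMUSG00000010476, mm10 chr7:137193673-137314445, minus strand) was highest outside the mesenchyme. Endothelial-like nuclei held 239 CPM [219, 261] (516 UMIs, in 73 of 96 nuclei), and pericyte-like nuclei 55.2 CPM [39.1, 75.8] (38 UMIs, in 9 of 67). The endothelial-like level was 4.33-fold [3.11, 6.19] above the pericyte-like level, which was 13.1-fold [6.82, 26.8] above mesonephric mesenchyme-like nuclei at 4.22 CPM [2.25, 7.21]. Germ-like nuclei held 4.06 CPM, progenitor-like nuclei 1.23 CPM [0.750, 1.90] and Leydig-like nuclei 0.461 CPM. From mesonephric mesenchyme-like nuclei down, neighbours in the order were not separated, and erythroid-like nuclei had no UMI.

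After thinning, *Ebf3* was found in 38.9% [29.1, 49.5] of endothelial-like and 5.97% [1.65, 14.6] of pericyte-like nuclei, against 0.404% of germ-like nuclei. The unthinned shares were 76.0%, 13.4% and 3.53%, at median depths of 9303.5, 7827 and 15614 UMIs. In pericyte-like nuclei 1 nucleus held 17 of the 38 UMIs (44.7%). Nuclei over the doublet threshold held 43.0% of endothelial-like and 50% of pericyte-like *Ebf3* UMIs, and without them the levels were 602 CPM [535, 675] and 41.2 CPM [24.8, 64.3]. Mesonephric mesenchyme-like nuclei were then at 5.78 CPM [3.08, 9.89], so the step from pericyte-like to mesonephric nuclei was smaller.

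Endothelial-like nuclei formed a pair of finer clusters with different *Ebf3* levels. The cluster of 63 led by *Adgrl4* and *Cyyr1*, with *Ebf3* itself among its leading genes, held 454 CPM [412, 500]. The cluster of 32 led by *Gja5*, *Bmx* and *Mecom*, which are known from arterial endothelium, held *Ebf3* at 74.4 CPM [59.8, 91.4], a ratio of 6.11 [4.86, 7.76]. The *Ebf1* levels in these clusters had a ratio of 0.982 [0.897, 1.07]. Few nuclei stand behind the cluster of 32, where 1 nucleus held 446 of the *Ebf1* UMIs (39.6%) and 1 held 39 of the 90 *Ebf3* UMIs (43.3%).

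Some nuclei held more than 1 member. *Ebf1* and *Ebf3* were both present in 68 of 96 endothelial-like nuclei (70.8%, against 66.5% from the product of their shares). All 12 pericyte-like nuclei with *Ebf2* and all 9 with *Ebf3* also had *Ebf1*, which was in 65 of 67, so that the shares (17.9% and 13.4%) hardly differ from the products (17.4% and 13%). Of the pericyte-like nuclei, 6 of 67 had both *Ebf2* and *Ebf3* (8.96% [3.36, 18.5], against 2.41% from the product). In mesonephric mesenchyme-like nuclei *Ebf1* and *Ebf2* met in 34 of 399 (8.52% [5.97, 11.7], against 5.37%). At 2000 UMIs per nucleus the shares were 33.7% [24.3, 44.1] against 25.8% for *Ebf1* and *Ebf3* in endothelial-like nuclei, 4.48% [0.933, 12.5] against 0.713% for *Ebf2* and *Ebf3* in pericyte-like nuclei, and 3.27% [1.75, 5.52] against 1.95% for *Ebf1* and *Ebf2* in mesonephric mesenchyme-like nuclei. At 4000 UMIs the mesonephric pair stood at 6.37% [4.08, 9.41] against 3.79%, and the pericyte-like pair at 6.35% [1.76, 15.5] against 1.76% on 4 nuclei. Which intervals include the product changed with the depth, so nothing is read from the differences between the pairs.

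*Ebf4* was found in every class. Its level ran from 10.1 CPM in immune-like to 65.5 CPM in supporting-like nuclei. Mesonephric mesenchyme-like, progenitor-like and pericyte-like nuclei held 63.9 CPM [55.3, 73.5], 50.4 CPM [47.0, 54.0] and 37.8 CPM [24.7, 55.4]. Without nuclei over the doublet threshold, *Ebf4* ran from 3.35 CPM in germ-like and 3.94 CPM in immune-like nuclei to 68.5 CPM in mesonephric mesenchyme-like nuclei, and endothelial-like nuclei fell from 26.4 to 10.2 CPM. Such nuclei had held 91.2% of endothelial-like and 85.3% of germ-like *Ebf4* UMIs.

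Against all genes with at least 100 UMIs over the compared classes, the members' differences were read beside the share of genes that passed 2-fold. Between pericyte-like and progenitor-like nuclei, 5.2% of genes were 2-fold higher and 7.99% lower, and *Ebf1* and *Ebf2*, the members with enough UMIs, were both higher. *Ebf3* had 58 UMIs over both classes and was not counted. Between mesonephric mesenchyme-like and progenitor-like nuclei, 4.01% were higher and 5.04% lower, and *Ebf2* was higher while *Ebf1* was at 0.579 [0.539, 0.621] of the progenitor-like level. Progenitor-like over Leydig-like nuclei gave 13.8% higher and 10.9% lower, with *Ebf1* higher as the only member counted. Endothelial-like over progenitor-like nuclei gave 8.11% higher and 7.4% lower, with *Ebf3* higher and *Ebf1* at 1.90 [1.81, 2.0]. *Ebf2* and *Ebf3* reached 100 UMIs only through the class where they were high, so that a difference was fixed by the minimum and nothing is read from their count.

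Chromatin at the *Ebf* genes was read from 66 peaks within 200 kb of the gene starts, 24 for *Ebf1*, 24 for *Ebf2* and 18 for *Ebf3*. Peak levels are fragments per 1000000 fragments at peaks of a class (FPM). The stretches just before the starts of *Ebf1* and *Ebf3* are shown because their start peaks were open in classes with and without the RNA. The capitals mark CpG pairs. The *Ebf1* stretch (mm10 chr11:44617117-44617316, plus strand, 200 bases) has 9 CpG and 58% GC, and the *Ebf3* stretch (RefSeq, GRCm38, chr7:137314446-137314695, minus strand, 250 bases) has 43 CpG and 80% GC.
Ebf1 upstream: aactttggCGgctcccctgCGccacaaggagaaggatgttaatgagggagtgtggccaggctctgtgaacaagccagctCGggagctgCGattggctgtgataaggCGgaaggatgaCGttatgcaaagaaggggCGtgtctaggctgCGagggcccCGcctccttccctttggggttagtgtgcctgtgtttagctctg
Ebf3 promoter: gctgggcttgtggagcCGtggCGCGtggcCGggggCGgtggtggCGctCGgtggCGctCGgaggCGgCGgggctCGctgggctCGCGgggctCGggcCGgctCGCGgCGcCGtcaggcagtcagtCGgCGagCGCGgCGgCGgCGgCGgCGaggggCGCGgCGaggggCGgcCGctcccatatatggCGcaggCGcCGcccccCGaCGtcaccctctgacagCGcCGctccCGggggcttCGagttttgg

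The start peak of *Ebf1* (mm10 chr11:44616765-44617639) did not follow the RNA. It stood at 29.9 FPM in Leydig-like, 25.5 FPM [21, 30.7] in progenitor-like, 25.6 FPM [6.96, 65.4] in pericyte-like, 18.0 FPM in endothelial-like and 17.9 FPM in Sertoli-like nuclei. The pericyte-like and endothelial-like values rest on 4 fragments each. The start peak of *Ebf3* (mm10 chr7:137314027-137314908) was likewise open everywhere, with 44.7 FPM in pericyte-like, 41.4 FPM in germ-like, 36.5 FPM in progenitor-like, 31.5 FPM [12.7, 65.0] in endothelial-like and 19.1 FPM in Sertoli-like nuclei. Near the start of *Ebf2* (mm10 chr14:67234098-67234977) the peak stood at 38.3 FPM in pericyte-like (6 fragments), 33.5 FPM in germ-like, 23.8 FPM [13.9, 38.1] in mesonephric mesenchyme-like and 18.5 FPM [14.7, 22.9] in progenitor-like nuclei. Progenitor-like over Leydig-like ratios at these peaks were 0.854 [0.580, 1.29] for *Ebf1*, 0.971 [0.691, 1.39] for *Ebf3* and 0.801 [0.512, 1.29] for *Ebf2*.

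Among single peaks, the intron peak of *Ebf2* at 39.1 kb from its start (mm10 chr14:67271943-67272853) was highest in mesonephric mesenchyme-like nuclei. It held 21 FPM [11.8, 34.7] there (15 fragments) and 6.61 FPM [4.42, 9.49] in progenitor-like nuclei (29 fragments), a ratio of 3.18 [1.58, 6.13]. Endothelial-like nuclei came next with 13.5 FPM (3 fragments), a ratio of 1.55 [0.440, 8.38], although their *Ebf2* RNA came from 1 nucleus. Pericyte-like nuclei had 1 fragment at it (6.39 FPM). The middle of this peak is shown because it is the *Ebf2* peak past 2-fold in this comparison (chr14:67272298-67272497, plus strand, 200 bases, all in lower case because the looser motif form given below has no match in it).
Ebf2_17 middle: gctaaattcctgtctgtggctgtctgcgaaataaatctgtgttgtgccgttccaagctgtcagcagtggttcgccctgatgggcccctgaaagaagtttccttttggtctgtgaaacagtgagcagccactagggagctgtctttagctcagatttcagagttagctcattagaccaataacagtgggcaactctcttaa

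In *Ebf1*, the intron peak at 68.9 kb from the start (mm10 chr11:44685756-44686681) held 25.6 FPM in pericyte-like, 18.0 FPM in endothelial-like, 11.2 FPM in mesonephric mesenchyme-like, 5.47 FPM in progenitor-like and 0.854 FPM in Leydig-like nuclei, on 4, 4, 8, 24 and 1 fragments. Contractile, germ-like, Sertoli-like and surface epithelium-like nuclei held 7.42, 5.12, 4.46 and 3.27 FPM, and erythroid-like, immune-like and supporting-like nuclei had no fragment. The mesonephric over progenitor ratio of 2.05 [0.796, 4.72] was not separated from 1. In *Ebf3*, the intron peak at 12.9 kb from the start (mm10 chr7:137301117-137302049) was 4.80-fold [1.24, 41.2] higher in progenitor-like than in Leydig-like nuclei (36 and 2 fragments), where *Ebf3* RNA was at or below the germ-like level in both. Upstream of *Ebf3*, the intergenic peak at -164 kb was lower in progenitor-like than in Leydig-like nuclei (ratio 0.478 [0.317, 0.730]). The *Ebf3* intron peak at 92.6 kb was lower in mesonephric mesenchyme-like than in progenitor-like nuclei (ratio 0.224 [0.026, 0.847]).

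In the *Ebf2* window, the peaks lowest in progenitor-like against Leydig-like nuclei lay at -44.5 kb (ratio 0.565 [0.402, 0.801]) and at -161 kb, the latter over the start of the neighbour *Ppp2r2a* (0.611 [0.461, 0.815]). The highest *Ebf2* ratio was 1.66 [1.0, 2.90] at -97.3 kb, and the highest *Ebf1* ratio was 1.91 [0.811, 5.50] at -3.73 kb. Both lay under 2-fold, and the *Ebf1* interval included 1.

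**Figure D4:**
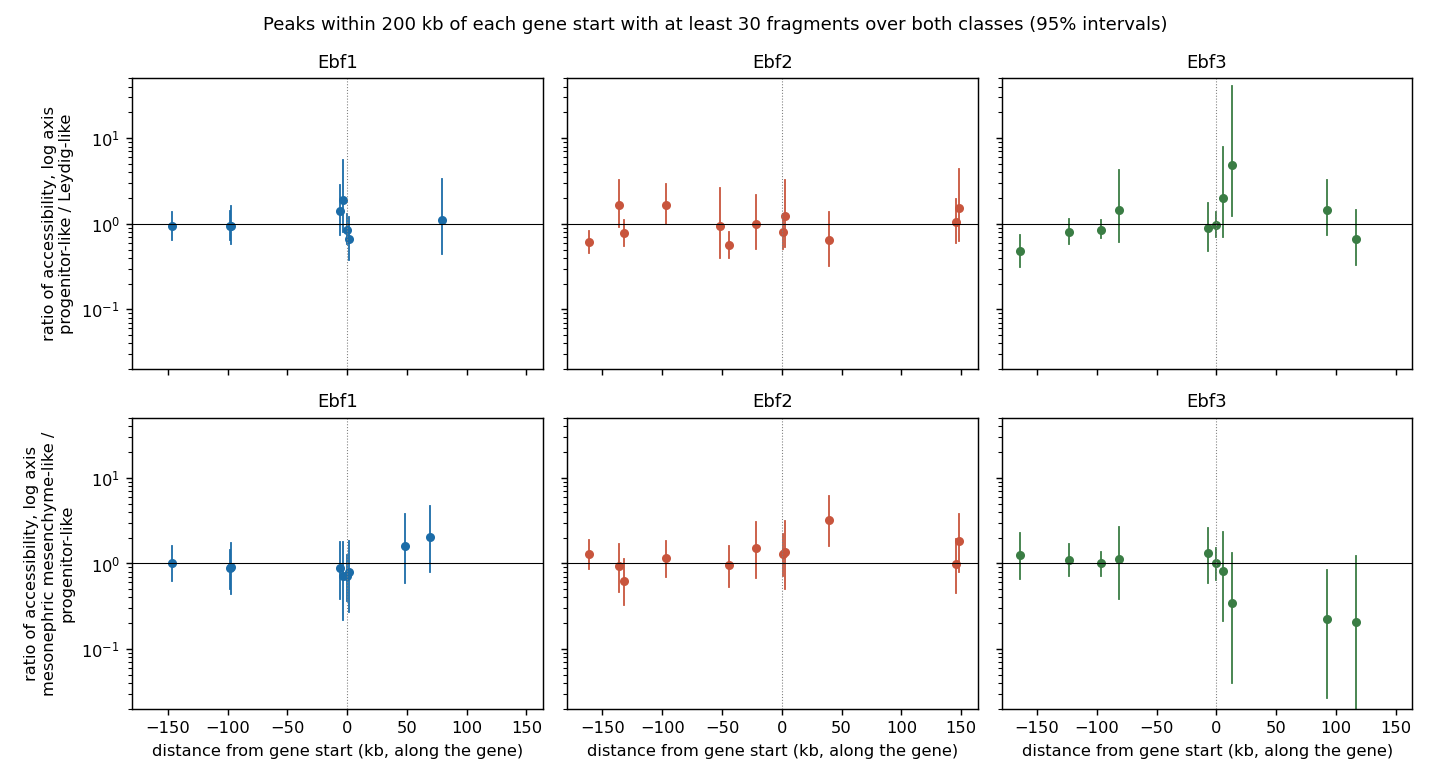
Ratio of accessibility (log axis) of progenitor-like over Leydig-like nuclei (top row) and mesonephric mesenchyme-like over progenitor-like nuclei (bottom row) at peaks within 200 kb of the start of *Ebf1*, *Ebf2* and *Ebf3* with at least 30 fragments over both classes, against distance from the start in kb along the gene, with 95% intervals. Most intervals include 1, and the *Ebf2* peak at 39.1 kb stands at 3.18 in the bottom row.

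Peaks of the *Ebf* genes past 2-fold were read beside all peaks with at least 30 fragments over both classes. For progenitor-like over Leydig-like, 20.2% of all peaks were higher and 6.63% lower. There, 0 of 8 *Ebf1* peaks, 0 of 12 *Ebf2* peaks and, for *Ebf3*, 2 higher and 1 lower of 10 passed. For mesonephric mesenchyme-like over progenitor-like, with 5.96% higher and 18.6% lower among all peaks, 1 of 9 *Ebf1* and 1 of 11 *Ebf2* peaks were higher, and 3 of 10 *Ebf3* peaks were lower.

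For pericyte-like over progenitor-like, with 9.41% higher and 27.2% lower among all peaks, *Ebf1* had 1 higher and 1 lower of 7, *Ebf2* 3 and 3 of 11, and *Ebf3* 0 and 2 of 10. For endothelial-like over progenitor-like, with 7.26% higher and 30.2% lower, *Ebf1* had 1 and 1 of 8, *Ebf2* 2 and 4 of 11, and *Ebf3* 0 and 1 of 10. With 7 to 12 peaks counted per gene, nothing is read from these shares. The median log2 ratio over all peaks was 0.13, -0.08, -0.01 and -0.07 in these comparisons in the order given.

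Summing peaks gave smaller differences than the RNA. The 15 peaks annotated to *Ebf1*, in a window that ends inside this long gene, stood at 86.8 FPM in progenitor-like and 134 FPM in pericyte-like nuclei, a ratio of 1.55 [0.946, 2.40] where the RNA ratio was 5.97. Leydig-like nuclei were at 0.865 [0.678, 1.09] of the progenitor-like sum and Sertoli-like nuclei at 0.646 [0.507, 0.817]. The 10 *Ebf2* peaks were higher in mesonephric mesenchyme-like nuclei (ratio 1.60 [1.23, 2.06]) and not separated in pericyte-like nuclei (1.04 [0.515, 1.89]). The 7 peaks annotated to *Ebf3*, without the peak at 117 kb that lies in the gene but over the start of *Gm45278*, gave 0.719 [0.368, 1.27] for endothelial-like over progenitor-like nuclei, where the RNA ratio was 195 [125, 322], or 428 without nuclei over the doublet threshold.

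The letters TCCCNNGGGA, the palindrome that EBF proteins are known to bind, were searched on both strands, which read alike. They occurred in 3031 of the 109183 peaks with sequence (2.78%), and in 297 of 32851 RefSeq promoters of 300 bases (0.904%). In the *Ebf* windows 1 of 66 peaks held them, at -91.3 kb from the *Ebf2* start, and none of the *Ebf1*, *Ebf3* and *Ebf4* promoter entries did. The looser form CCCNNGGG was in 26.1% of all peaks and in 15 of the 66 (22.7%). The stretch around the match is shown as the only one in the windows (chr14:67141646-67141745, plus strand, match in capitals). A match is a description of letters and no evidence of binding.
Ebf2_8 motif: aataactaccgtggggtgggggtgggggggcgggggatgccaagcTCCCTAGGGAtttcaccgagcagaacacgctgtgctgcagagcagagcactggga

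Across the genome, fragments fell on peaks with the motif most often in pericyte-like nuclei, the class with the highest *Ebf1* and *Ebf2* levels. Over all peaks the share was 3.57% [3.48, 3.66] in pericyte-like, 3.40% in endothelial-like and 3.24% [3.22, 3.25] in progenitor-like nuclei. Over the 76409 peaks more than 5 kb from any gene start, of which 2.55% hold the motif, it was 3.49% [3.35, 3.64] in pericyte-like and 2.83% [2.80, 2.85] in progenitor-like nuclei, and 2.74% to 2.98% in the other classes. The pericyte-like over progenitor-like ratio was 1.23 [1.18, 1.29] at these distal peaks. Mesonephric mesenchyme-like nuclei, where *Ebf2* was also present, were at 0.997 of progenitor-like nuclei, and endothelial-like nuclei at 1.05 [1.01, 1.10]. With the looser form over all peaks, pericyte-like nuclei were not highest, at 39.0% beside 41.8% in erythroid-like, 40.7% in immune-like and in germ-like and 39.1% in endothelial-like nuclei.

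With other gaps between the same fixed letters, chosen after seeing the data, the distal ratio was 1.07, 1.05, 1.14 [1.09, 1.2] and 1.02 for gaps of 0, 1, 3 and 4 bases. Without nuclei over the doublet threshold, it was 1.28 [1.22, 1.34] for the gap of 2. Of 2095 distal peaks 2-fold higher in pericyte-like nuclei, 104 held the motif (4.96% [4.07, 5.98]), against 2.86% of the 20181 distal peaks tested and 2.29% of those 2-fold lower. The other comparisons differed in direction. Distal peaks 2-fold higher in progenitor-like than in Leydig-like nuclei, where *Ebf1* RNA was also higher, held it in 2.49% [2.15, 2.87], against 2.93% of those tested and 2.95% of those lower. Those higher in mesonephric mesenchyme-like than in progenitor-like nuclei held it in 2.54% [1.89, 3.34], against 2.89% of those tested, and those higher in endothelial-like nuclei in 3.70% [2.80, 4.78], against 2.86% of those tested and 2.66% [2.33, 3.02] of those lower. Base composition of the fragments was 49.1% GC in pericyte-like and 48.6% in progenitor-like nuclei at distal peaks. The peaks past 2-fold differed more, with mean GC of 49.5% in those higher and 47.2% in those lower in pericyte-like nuclei. These values were 46.3% and 48.7% for progenitor-like over Leydig-like, 47.2% and 46.3% for mesonephric and 50.7% and 47.0% for endothelial-like over progenitor-like nuclei. The part of base composition in these differences was not tested. The paper placed *Ebf1* among its top progenitor candidates by RNA and motif enrichment together, with other peaks and motif models.

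**Figure D5:**
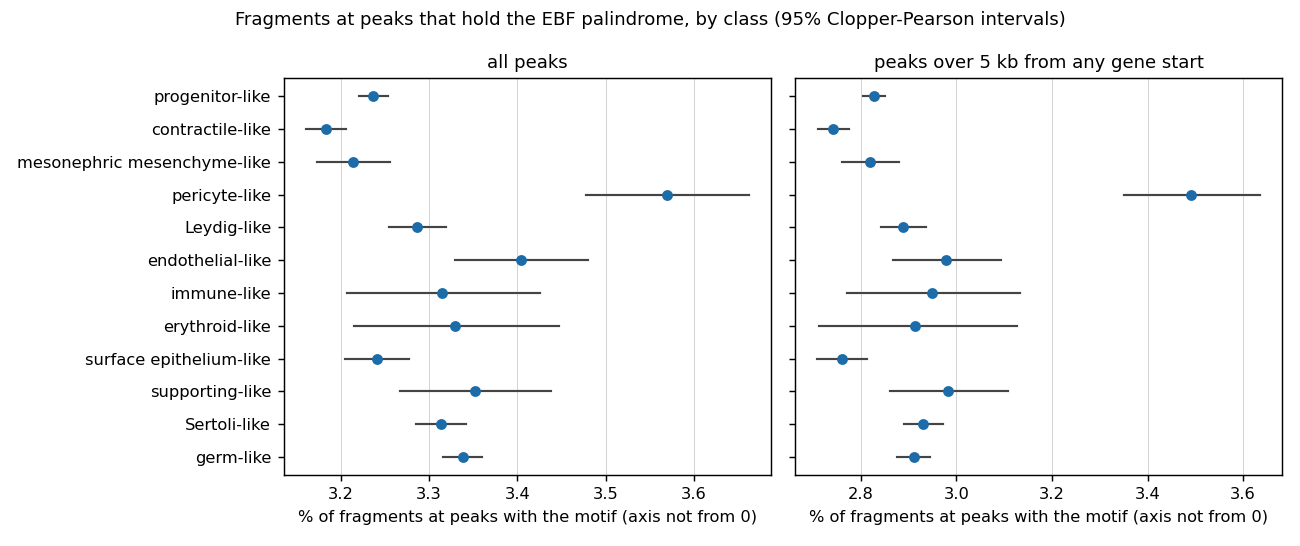
Percent of fragments at peaks that fall on peaks holding TCCCNNGGGA, by class, for all peaks and for peaks over 5 kb from any gene start, with Clopper-Pearson 95% intervals (the axis does not start at 0). Pericyte-like nuclei are highest in both, at 3.57% and 3.49%, and progenitor-like nuclei are at 3.24% and 2.83%.

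The matches with the clearest excess in pericyte-like over progenitor-like nuclei are shown to give the sequence context. They were chosen after seeing the data, as motif-holding distal peaks with the highest lower bounds of the ratio, outside exons, each with 30 bases on both sides and the motif in capitals (mm10, plus strand). Their nearest gene starts are *Top2b* at 36.5 kb, *Pcbd1* at 23.8 kb, *Ccdc50* at 135 kb, *Slc35c1* at 51.8 kb and *Hs1bp3* at 6.83 kb, the last in an intron of that gene. The regions are chr14:16328676-16328745, chr10:61065202-61065271, chr16:27523933-27524002, chr2:92511874-92511943 and chr12:8320421-8320490. The *Top2b* peak held 70.3 FPM in pericyte-like and 9.11 FPM in progenitor-like nuclei (11 and 40 fragments, ratio 7.71 [3.57, 15.3]), and the other ratios ran from 4.88 to 6.47 on 6 to 8 pericyte-like fragments. Other classes also had fragments at them, with 52 Sertoli-like and 34 surface epithelium-like fragments at the *Ccdc50* peak and 67 germ-like fragments at the *Hs1bp3* peak.
Pericyte peak 1: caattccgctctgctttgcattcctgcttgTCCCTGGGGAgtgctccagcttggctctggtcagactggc
Pericyte peak 2: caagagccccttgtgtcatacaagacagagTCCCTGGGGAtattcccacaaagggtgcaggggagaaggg
Pericyte peak 3: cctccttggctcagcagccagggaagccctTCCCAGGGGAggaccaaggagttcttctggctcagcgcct
Pericyte peak 4: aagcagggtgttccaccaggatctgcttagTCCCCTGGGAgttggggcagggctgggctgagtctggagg
Pericyte peak 5: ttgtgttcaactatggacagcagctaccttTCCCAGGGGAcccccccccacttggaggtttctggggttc

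Genes known to act with EBF proteins were followed from a fixed list of 15. *Zfp423*, a zinc-finger partner of EBF proteins, was 1.86-fold [1.77, 1.97] higher in progenitor-like than in Leydig-like nuclei, as *Ebf1* was, but stood at 0.522 of the progenitor-like level in pericyte-like nuclei, where *Ebf1* was highest. Its relative *Zfp521* ran the other way, with a progenitor-like over Leydig-like ratio of 0.413 [0.399, 0.426]. *Runx1* was also lower in progenitor-like than in Leydig-like nuclei (ratio 0.0874 [0.0586, 0.127]). *Prdm16*, a cofactor in brown fat, was 20.1-fold [15.8, 25.8] higher in endothelial-like than in progenitor-like nuclei. Of the 9 partners with enough UMIs in pericyte-like against progenitor-like nuclei, none passed 2-fold either way, and the median log2 ratio of -0.09 lay beside -0.01 for all genes. The other comparisons gave 1 higher and 0 lower of 11 (mesonephric), 1 and 2 of 12 (progenitor-like over Leydig-like) and 3 and 0 of 11 (endothelial-like), to be read beside the shares over all genes given above for each comparison.

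The mural genes that could be counted were higher where *Ebf1* was highest. Of 12 mural genes, 5 had enough UMIs, and all 5 were over 2-fold higher in pericyte-like than in progenitor-like nuclei, a comparison in which 5.2% of all genes were higher. Their median log2 ratio of 2.02 is the value of *Cspg4*. *Mcam* was 36.0-fold [25.0, 52.1] and *Abcc9*, a potassium channel subunit of mural cells, 15.3-fold [13.2, 17.7] higher. *Mcam* and *Cspg4* (4.12-fold) were also markers that named the class, so the median and their part of the count are no finding. *Pdgfrb* (2.68-fold) and *Notch3* (2.57-fold), receptors of mural cells, were not markers. Mural genes gave 1 higher and 1 lower of 4 in the mesonephric comparison, 3 and 0 of 4 in progenitor-like over Leydig-like nuclei, and 2 and 1 of 5 in endothelial-like over progenitor-like nuclei, with the shares over all genes given above.

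Mesenchymal transcription factors differed as *Ebf1* did between progenitor-like and Leydig-like nuclei. Of 13 counted from a list of 20, 11 were higher in progenitor-like nuclei and 0 lower, with a median log2 ratio of 1.85 against -0.03 for all genes. *Gli2* and *Gli1*, effectors of hedgehog signalling, were 4.89-fold and 4.03-fold higher, and *Twist1* was 4.44-fold higher. *Tcf21* (4.04-fold) was also a class marker. In pericyte-like nuclei, where *Ebf1* was higher still, 2 of 13 were higher than in progenitor-like nuclei (*Nr2f1* 3.63-fold, *Prrx1* 2.46-fold) and 8 were lower. In mesonephric mesenchyme-like nuclei, with *Ebf2*, 4 of 14 were higher, among them *Osr1* (4.39-fold) and *Twist2* (4.02-fold), and 2 were lower. In endothelial-like nuclei 11 of 13 were lower. Over all genes, 13.8% were higher in progenitor-like over Leydig-like nuclei, 5.2% higher and 7.99% lower in the pericyte-like comparison, 4.01% higher and 5.04% lower in the mesonephric one, and 7.4% lower in the endothelial-like one. The list genes were among the features used for clustering, so all these counts are descriptions.

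Genes of the fat lineage were mixed. *Pparg*, *Fabp4*, *Adipoq* and *Ucp1*, which mark fat differentiation, had 0 to 6 UMIs in the classes compared. *Dlk1*, which marks precursor cells, was highest in surface epithelium-like nuclei at 396 CPM and stood at 333 CPM in mesonephric mesenchyme-like, 273 CPM in contractile and 264 CPM in progenitor-like nuclei. It was 4.18-fold higher in progenitor-like than in Leydig-like nuclei and at 0.369 of the progenitor-like level in pericyte-like nuclei. Of the 12 genes of the fat lineage, 0 were higher and 2 lower of 4 counted in pericyte-like over progenitor-like nuclei, 0 and 1 of 4 in the mesonephric comparison, 2 and 1 of 6 in progenitor-like over Leydig-like nuclei, and 1 and 1 of 5 in endothelial-like over progenitor-like nuclei, beside the shares over all genes given above. None of the 10 B-lineage genes had 100 UMIs over pericyte-like and progenitor-like nuclei, where *Ebf1* was high.

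The genes whose levels followed each member most closely over 23 fine clusters, by Pearson's r of log2 (CPM + 1) among 7429 genes, are given as a description. For *Ebf1* these were *Col4a1* (0.88), *Igfbp7* (0.87), *Dlc1* (0.86), *Col4a2* (0.85) and *Scn7a* (0.84), with *Col4a1* and *Col4a2* encoding collagen chains of the basement membrane. For *Ebf2* the values were lower, with *Emcn* (0.73), *Angpt1* and *Agtr1a* (both 0.70) and *Tlr4* (0.68) among the leading genes. *Angpt1*, a ligand of the endothelial receptor Tie2, held 700 CPM in mesonephric mesenchyme-like, 304 CPM in pericyte-like and 35.4 CPM in progenitor-like nuclei. For *Ebf3* they were *Arhgef7* and *Snrk* (both 0.92), *Gria2* (0.91), *Ecscr* (0.89) and *Cd93* (0.87), and *Cd93*, an endothelial surface protein, held 145 CPM in endothelial-like nuclei. With Spearman's rho in place of Pearson's r, 3, 0 and 2 of the 5 remained for *Ebf1*, *Ebf2* and *Ebf3*. With classes in place of fine clusters, only *Scn7a* and *Col4a1* remained for *Ebf1*, *Angpt1* for *Ebf2*, and *Arhgef7* and *Snrk* for *Ebf3*. Every list therefore depended on the measure or the grouping, and the *Ebf2* list most.

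Genes that overlap the members or lie beside them were also counted. The antisense and noncoding genes in the windows had few UMIs, with 30 for *Gm12158* and 27 for *4930438E09Rik*, and *Ppp2r2a*, the coding neighbour of *Ebf2*, was broad at 171 to 271 CPM in every class.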

How the data were processed

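Raw counts were used as deposited: UMI counts per gene, and a fragment list from which fragments at the authors' peaks were counted here. Per the labels and the study's methods, the authors ran Cell Ranger ARC 2.0.1 on mm10. The peaks are those of the deposited feature table. Nuclei were kept at over 500 genes, over 250 fragments at peaks and under 10% mitochondrial UMIs, among the thresholds of the study. Doublets were scored with Scrublet in scanpy 1.11.5, in place of the study's caller, and removed by rank. No ambient RNA was removed. Clusters were made from RNA and ATAC together in Seurat 5.3.0 (R 4.3.3, resolution 0.3, and 1 for fine clusters), and named from fixed markers. *Ebf1* to *Ebf4* and their peaks were kept out. The members, gene lists and comparisons were chosen with earlier results of these data known. Levels were summed per class in Python 3.11.15 (numpy 2.4.6, scipy 1.17.1). No p-value was derived, since nuclei do not replicate an animal. The ratio step was tested on simulated data. Genes needed 100 UMIs and peaks 30 fragments over both classes. Log2 ratios used a pseudocount of 1 CPM. Genes were named as the members, the fixed lists and the 5 most alike in level over clusters, among genes reaching 50 CPM, and peaks by their ratios or nearness to a start. Windows and distances to genes used the mm10 annotation, and sequences GRCm38 from RefSeq. Some single genes of the lists are not reported here.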

Additional observations from a re-analysis of the deposited data

How the results depend on the processing

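Among the alternatives for the leading values, 60 values stayed within counting error, 58 moved and 0 reversed. No direction turned, and the sizes moved with the choice of nuclei. The intervals used to judge this cover counting error only.

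*Ebf1*, progenitor-like over Leydig-like (3.15), was 2.75 with no doublets removed, 2.67 with stricter minimums (1000 genes and 1000 fragments), 3.77 without nuclei over 25000 UMIs, 2.96 at resolution 0.6, 2.64 with RNA clusters, 2.10 with ATAC clusters, 2.78 with the *Ebf* features kept, 4.86 with the germ-like level subtracted and 4.71 without nuclei over the automatic doublet threshold. *Ebf1*, pericyte-like over progenitor-like (5.97), was 5.50 with no doublets removed, 7.95 with removal at the automatic threshold, 7.12 without nuclei over 25000 UMIs, 6.34 at resolution 0.6, 7.43 with RNA clusters, 6.78 with germ-like subtracted and 6.94 without over-threshold nuclei. *Ebf1*, mesonephric over progenitor-like (0.579), was 0.432 with RNA clusters, 0.441 with ATAC clusters, 0.510 with germ-like subtracted and 0.533 without over-threshold nuclei. *Ebf1*, endothelial-like over progenitor-like (1.90), was 1.69 with no doublets removed, 2.10 at the automatic threshold, 2.22 without nuclei over 25000 UMIs, 2.03 at resolution 0.6 and 2.05 with germ-like subtracted.

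*Ebf2* ratios to progenitor-like nuclei moved most. They rest on 23 progenitor-like UMIs, and on 2 to 7 where they rose and 36 with ATAC clusters, and the cause was not tested. Of the 23, 20 lay in 1 nucleus of the cycling cluster. Most settings were clustered and named anew, so the progenitor-like class can gain or lose nuclei and a value is not the effect of the named step alone. Pericyte-like over progenitor-like (125) was 814 with no doublets removed, 519 at the automatic threshold, 1508 with stricter minimums, 320 without nuclei over 25000 UMIs, 1032 with RNA clusters, 1080.1 with *Ebf* features kept and 606 without over-threshold nuclei. Mesonephric over progenitor-like (60.2) was 435, 412, 762, 236, 141, 565 and 489 under the same settings, and 18.2 with ATAC clusters. *Ebf3*, pericyte-like over progenitor-like (45), was 24.3 at the automatic threshold and 23.3 without nuclei over 25000 UMIs, and endothelial-like over progenitor-like (195) was 124 with no doublets removed, 340.3 at the automatic threshold and 428 without over-threshold nuclei.

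Shares rose with depth: *Ebf1* in endothelial-like nuclei was 81.3% at 4000 UMIs and 87.5% unthinned, in progenitor-like 56.3% and 64.1% (40.3% at the automatic threshold), in Leydig-like 18.0% and 26.5%, *Ebf2* in mesonephric nuclei 12% unthinned, and *Ebf3* in endothelial-like nuclei 57.1% and 76.0%. Summed *Ebf3* peaks, progenitor-like over Leydig-like (0.841), were 0.963 in a window of 100 kb. The pericyte-like over progenitor-like motif share (1.10) was 1.05 with the looser form and 1.23 at distal peaks. The endothelial-like comparison, the motif gaps and the values without over-threshold nuclei were added after seeing the data. Clusters from RNA alone or ATAC alone gave no contractile class, and the class named mesonephric mesenchyme-like then held 972 and 1119 nuclei in place of 399, with contractile markers second, so its ratios describe a wider class. Clusters from ATAC alone had no pericyte-like or endothelial-like class, and germ-like subtraction was not possible for *Ebf2* and *Ebf3*. No paired analysis was possible because each assay has 1 library. Since 90.8% of germ-like *Ebf1* UMIs lay in nuclei over the doublet threshold, subtracting the germ-like level is not a correction for free RNA alone. The depth limits *Ebf2* and *Ebf3* most, since many classes hold under 20 UMIs of them.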
